A study of Mus musculus with 18 samples.

Results

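Eosinophil granule proteins and RNases were followed through 7 genes, Prg2, Prg3, Epx, Ear1, Ear2, Ear6 and Ear10, of 55029 genes listed in the count tables (54232 are listed for all libraries). The genes were chosen by symbol as coding for proteins stored in the granules, and each was found in the tables by its Ensembl ID. Eosinophils build granules during their development in the bone marrow and fill them with strongly basic proteins, which they release on activation. Major basic protein, the product of Prg2, forms the crystalline core of the granule, with its homolog coded by Prg3, while eosinophil peroxidase, the product of Epx, lies around the core and makes oxidants from halides. The Ear genes code for eosinophil-associated RNases of the RNase A superfamily, mouse relatives of the human eosinophil-derived neurotoxin and eosinophil cationic protein.

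RNA was measured in eosinophils from the peritoneal cavity of C57BL/6 mice, the strain the labels give, and per the study's methods these were NJ.1638 mice that carry an Il5 transgene. The cells were enriched by removing cells that bound beads against Thy1.2 and B220 and were used at a purity over 95% by flow cytometry per those methods, and the age of the mice is not given in the labels. They were left unstimulated (6 libraries, a to f) or were stimulated for 18 h with heat-inactivated E. coli, with IFN-γ at 50 ng/ml, with IFN-γ at 50 ng/ml and E. coli, or with IL-4 at 100 ng/ml (3 libraries each). How long the unstimulated cells were kept in culture is not stated. In comparisons with them, the stimulus and any difference in time in culture cannot be told apart. The controls carry the transgene too, so all cells came from animals with raised IL-5, and eosinophils of ordinary mice were not analysed here. Libraries were made by CEL-Seq2, which counts tags from the 3′ end of transcripts, and fall into 2 sets by the gene list of their tables. Unstimulated libraries a to c belong with E. coli, IFN-γ and the combination, 12 libraries called the larger set here, which hold 1523808 to 2734041 counts on genes each. Unstimulated libraries d to f belong with IL-4, and the 6 libraries of this IL-4 set hold 3625036 to 6482289 each. Stimulated cells were compared with the unstimulated libraries of their own set, and no fold change was tested between the sets. A search for outlying unstimulated libraries, given near the end, did pool libraries of both sets. The study calls its replicates biological, but neither it nor the labels say that they came from separate animals or cultures, so p-values measure only the spread between these samples.

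Levels are given as normalized CPM, the usual unit (counts per mega-count) that sets the count of a gene against the library's total count on genes, here after scaling by edgeR's TMM factors within a set. Changes are log2 fold changes with their standard error (SE) from edgeR's quasi-likelihood test, and a gene was called where its Benjamini-Hochberg adjusted p over all genes tested was under 0.05. A filter on low counts decided which genes were tested. It kept 2 of the 7 granule genes (Prg2 and Ear6) among 9883 genes in the larger set, and 6 of the 7 (all but Ear10) among 10556 genes in the IL-4 set. These are bulk samples, in which fewer cells with a transcript and less of the transcript per cell cannot be told apart.

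With E. coli, 1 of the 7 granule genes, of which 2 were tested, was called (Ear6, higher). Of all genes tested there, 13.5% were called higher and 16.7% lower. IFN-γ lowered both tested genes, Prg2 and Ear6, against backgrounds of 15.6% higher and 16% lower. The combination raised Ear6 and lowered Prg2, with 23.9% of genes called higher and 25.2% lower. After IL-4 2 of the 7, of which 6 were tested, were higher (Prg2 and Ear6), where 5.97% of genes were called higher and 4.35% lower. Between the combination and IFN-γ alone, Ear6 was called higher (backgrounds 6.25% higher and 5.98% lower), and between the combination and E. coli alone Prg2 and Ear6 were both called lower (17.5% higher and 15.3% lower). For the interaction, the test of whether the effect of E. coli differed in the presence of IFN-γ, edgeR called 0 of the 2 tested granule genes, 0 had an unadjusted p under 0.05 and DESeq2 called 0, where 2.58% of genes were called higher and 2.04% lower. The comparisons with unstimulated cells within a set share their 3 control libraries, so their directions are not independent of each other.

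**Figure D1:**
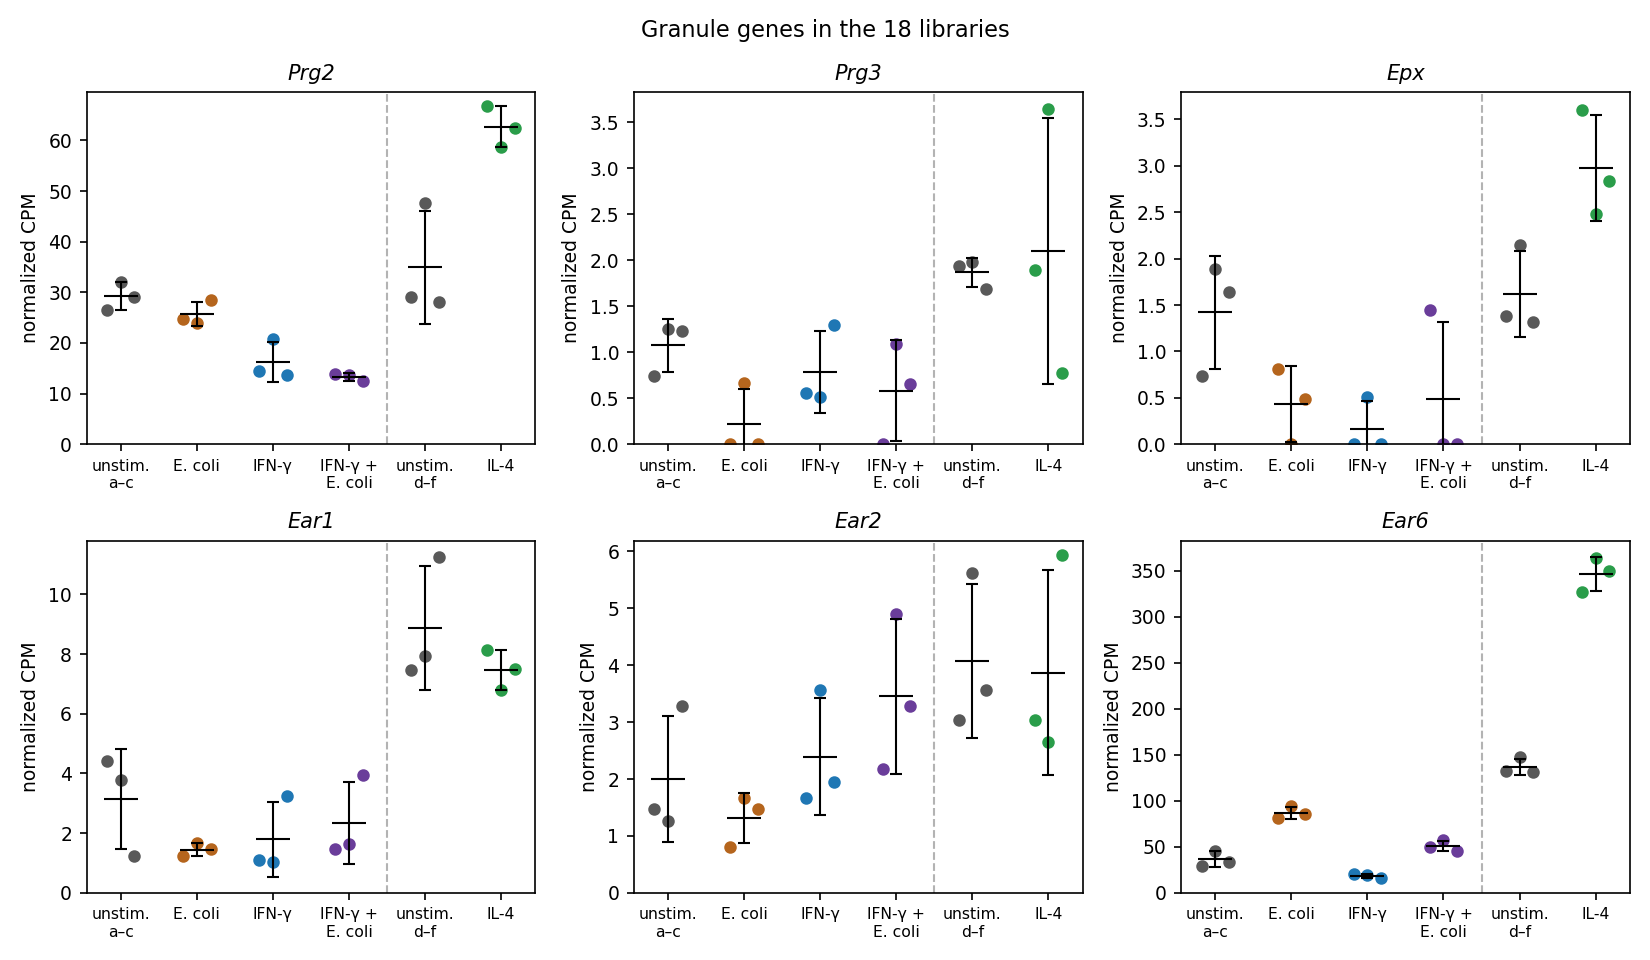
Normalized CPM (vertical axis) of 6 granule genes in each of the 18 libraries (points), grouped by stimulus, with the mean (bar) and SD of 3 libraries, and a dashed line between the 2 sets. Ear6 lay at 81.1 to 93.9 with E. coli against 29.5 to 45.9 in unstimulated libraries a to c, and Ear10 is not drawn because its count was 0 in every library.

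In unstimulated cells Ear6 and Prg2 were the granule genes with the most transcript. Levels of different genes were compared as mean normalized CPM per kilobase of exon, although tags counted from the 3′ end do not grow with transcript length. In libraries a to c this level was 38.4 for Ear6, 34.9 for Prg2, 4.30 for Ear1, 2.79 for Ear2, 1.13 for Prg3, 0.519 for Epx and 0 for Ear10. The libraries of Ear6 and Prg2 overlapped there, as did those of Ear1 and Ear2, so those neighbours in the order did not differ beyond their spread. In libraries d to f the same quantity was 145 for Ear6, 41.7 for Prg2, 12.2 for Ear1, 5.67 for Ear2, 1.97 for Prg3, 0.590 for Epx and 0 for Ear10. The order was the same, and here no neighbours above Ear10 overlapped. It rests on the division by length, since by mean normalized CPM alone Epx was above Prg3 in libraries a to c (1.42 against 1.07) and below it in libraries d to f (1.61 against 1.87), where their libraries overlapped. By mean normalized CPM, Ear6 stood above 73.7% of the 18178 genes with a count in the set of libraries a to c, and above 94.2% of 21629 genes in that of libraries d to f. Prg2 stood above 70.4% and 82.2%, and Epx above 35.4% and 50.9%.

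Prg2 (ENSMUSG00000027073, chr2:84980461-84983632, + strand, GRCm38) codes for major basic protein. Its normalized CPM was 26.5, 32.1 and 29.1 in unstimulated libraries a, b and c, and 24.7, 23.9 and 28.4 with E. coli. These ranges overlapped, and the log2 fold change of -0.19 (SE 0.174, adjusted p = 0.462) did not pass edgeR's test, with a 95% interval from -0.53 to 0.16. With IFN-γ the libraries held 14.5, 20.9 and 13.7, each below every unstimulated library. Prg2 fell by 0.81 on the log2 scale (SE 0.195, adjusted p = 0.00351, edgeR with Benjamini-Hochberg adjustment). With IFN-γ and E. coli together the level was 13.8, 13.6 and 12.5, again below all 3 controls, and the gene fell by 1.13 (SE 0.207, adjusted p = 0.000184). Both calls held with any 1 library left out, at -1.01 to -0.69 for IFN-γ and -1.20 to -1.05 for the combination. Set against E. coli alone, the combination was lower in 3 of 3 libraries, and Prg2 fell by 0.94 (SE 0.208, adjusted p = 0.00178). Against IFN-γ alone the libraries overlapped, and the log2 difference of -0.31 (SE 0.230, adjusted p = 0.444) was not called. The interaction was -0.13 (SE 0.288, adjusted p = 0.885).

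IL-4 was the stimulus with which Prg2 was higher. Its normalized CPM was 29.0, 47.7 and 28.0 in unstimulated libraries d, e and f, and 66.8, 58.7 and 62.5 with IL-4. All 3 IL-4 libraries lay above all 3 controls, of which library e stood apart from the others. The log2 fold change was 0.83 (SE 0.207, adjusted p = 0.0291, edgeR), and DESeq2 gave an adjusted p of 0.00495. The call rested on few libraries. Leaving out unstimulated d gave 0.72 with an adjusted p of 0.0650, leaving out f 0.69 with 0.0984, and leaving out IL-4 1, 2 or 3 gave 0.80, 0.88 or 0.83 with 0.115, 0.0844 or 0.0940, all past the threshold of 0.05, while without unstimulated e the change was 1.13 with 0.000119.

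Prg3 (ENSMUSG00000027072, chr2:84988215-84993886, + strand, GRCm38), the homolog of Prg2, lies beside it on chromosome 2. Over the 12 libraries of the larger set it had 0 to 3 counts per library, and it was not tested there. The 3 libraries of a group together held 7 counts in unstimulated cells, 2 after E. coli, 4 after IFN-γ and 3 after the combination. Pooled over each group, these counts amount to 1.04 CPM (95% exact Poisson interval 0.417 to 2.14), 0.266 (0.0322 to 0.961), 0.755 (0.206 to 1.93) and 0.633 (0.131 to 1.85). The E. coli libraries all lay below every control, and a fit without the filter gave -1.73 for E. coli (SE 1.15, 95% interval -3.99 to 0.52, adjusted p = 0.424), which was not called. All such intervals, and the limits for a count of 0, cover counting error only. In libraries d to f, which hold more counts in total, Prg3 stood at 1.94, 1.98 and 1.69 normalized CPM, and with IL-4 at 1.89, 3.64 and 0.774. The IL-4 libraries spread to both sides of the controls, and the log2 fold change was 0.23 (SE 0.553, adjusted p = 0.833).

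Epx (ENSMUSG00000052234, chr11:87864000-87875536, − strand, GRCm38), the peroxidase gene, was as scarce. Its counts were 0 to 4 per library in the larger set, where it was not tested. In sum, 9 counts were found in unstimulated libraries a to c, 3 after E. coli, 1 after IFN-γ and 2 after the combination. Pooled CPM was 1.33 (95% exact Poisson interval 0.610 to 2.53), 0.399 (0.0823 to 1.17), 0.189 (0.00478 to 1.05) and 0.422 (0.0511 to 1.52). The IFN-γ libraries all lay below every control, and a fit without the filter gave -2.48 for IFN-γ (SE 1.30, 95% interval -5.02 to 0.06, adjusted p = 0.238), which was not called. In the IL-4 set Epx had 1.38, 2.15 and 1.32 normalized CPM in libraries d, e and f, and 3.60, 2.48 and 2.84 with IL-4. Every IL-4 library was above every control. The log2 fold change of 0.85 (SE 0.446, adjusted p = 0.268, edgeR) was not called, and its 95% interval ran from -0.03 to 1.72.

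Ear6 (ENSMUSG00000062148, chr14:51853699-51854643, + strand, GRCm38) was the RNase gene with the most counts among the granule genes, and it was called in every comparison but the interaction. Unstimulated libraries a, b and c held 29.5, 45.9 and 33.6 normalized CPM, and the E. coli libraries held 81.1, 93.9 and 85.8. No library overlapped between these groups. Ear6 rose by 1.29 on the log2 scale (SE 0.155, adjusted p = 4.44e-06, edgeR with Benjamini-Hochberg adjustment), which is 2.44-fold. With IFN-γ the level was 20.0, 19.3 and 16.3, below all 3 controls, and Ear6 fell by 0.93 (SE 0.192, adjusted p = 0.00100). The 2 stimuli thus had calls of opposite direction for Ear6 when given alone.

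With IFN-γ and E. coli together, Ear6 was at 50.1, 57.1 and 45.9 normalized CPM, between the levels with either stimulus alone. Compared with IFN-γ alone, all 3 libraries were higher, by 1.46 on the log2 scale (SE 0.190, adjusted p = 3.55e-05). Compared with E. coli alone, all 3 were lower, and Ear6 fell by 0.77 (SE 0.154, adjusted p = 0.000793). The interaction of 0.17 (SE 0.246, adjusted p = 0.803) was not called, with a 95% interval from -0.31 to 0.65. Against unstimulated cells Ear6 was higher by 0.52 (SE 0.169, adjusted p = 0.0153), although 1 library with the combination was just under unstimulated library b. That call was lost without unstimulated a (0.38, adjusted p = 0.1001), without unstimulated c (0.48, 0.0511) and without replicate 2 of the combination (0.43, 0.0789), and held without any of the other 3 libraries.

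Ear6 was also higher with IL-4. Its normalized CPM was 132, 147 and 132 in unstimulated libraries d, e and f, and 327, 364 and 350.3 with IL-4. The IL-4 libraries lay above all controls by several times the spread within a group (SD 8.80 in controls and 18.8 with IL-4). The log2 fold change was 1.34 (SE 0.116, adjusted p = 9.89e-05, edgeR), or 2.53-fold. It stayed between 1.30 and 1.39, and called, with any 1 of the 6 libraries left out.

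**Figure D2:**
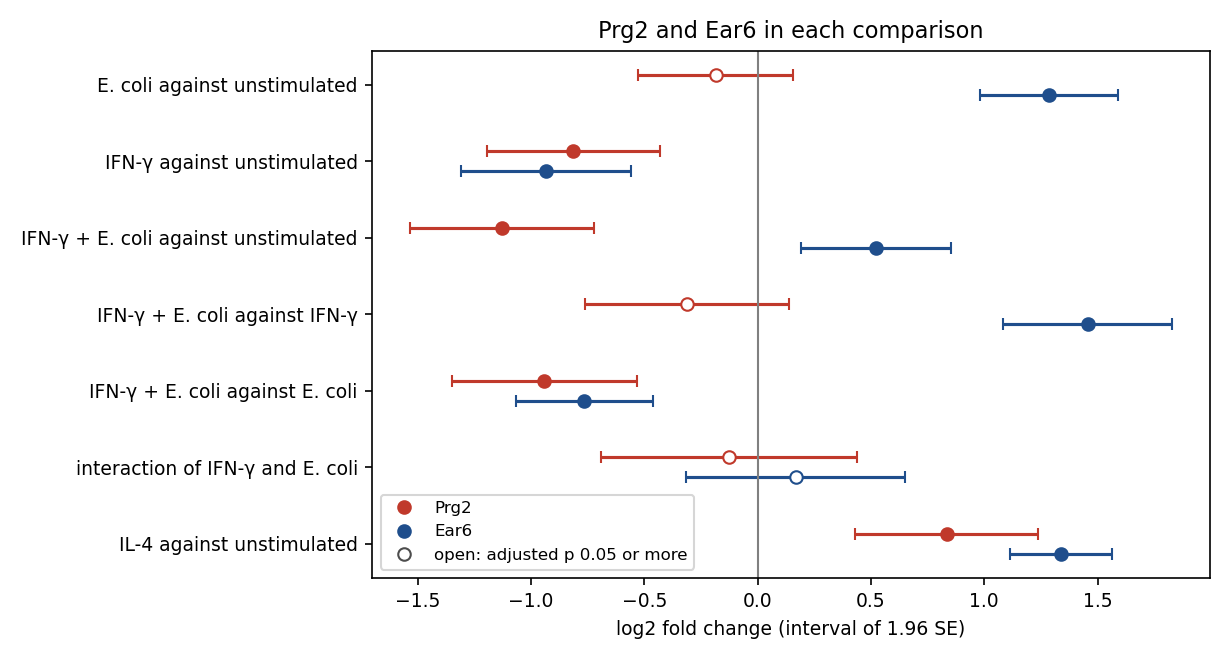
Log2 fold change (horizontal axis) of Prg2 (red) and Ear6 (blue) in each of the 7 comparisons, with bars for the 95% interval and open points where the adjusted p was 0.05 or more. Ear6 is at 1.29 for E. coli, -0.93 for IFN-γ and 1.34 for IL-4, and Prg2 is at -0.19, -0.81 and 0.83 for the same stimuli.

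Ear1 (ENSMUSG00000072601, chr14:43818765-43875517, − strand, GRCm38) and Ear2 (ENSMUSG00000072596, chr14:44102654-44103534, + strand, GRCm38) are RNase genes that had few counts in the larger set. Ear1 had 2 to 12 counts per library, with 4.42, 3.77 and 1.23 normalized CPM in unstimulated libraries a, b and c. It stood at 1.22, 1.66 and 1.47 with E. coli, 1.11, 1.02 and 3.25 with IFN-γ, and 1.45, 1.63 and 3.94 with both. The groups overlapped in each case. Ear2 had 2 to 9 counts per library, and its controls stood at 1.47, 1.26 and 3.27 normalized CPM. With E. coli Ear2 was at 0.811, 1.66 and 1.47, with IFN-γ at 1.67, 3.56 and 1.95, and with both at 2.18, 4.90 and 3.28. Each stimulated group overlapped the controls, while the combination lay above E. coli alone in 3 of 3 libraries. Fitted without the filter on low counts, that last difference was 1.34 (SE 0.641) with an adjusted p of 0.171 and was not called, and neither gene was called in any comparison of that set.

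In the IL-4 set both genes could be tested. Ear1 was at 7.47, 7.93 and 11.3 normalized CPM in unstimulated libraries d, e and f and at 8.14, 6.78 and 7.49 with IL-4, with a log2 fold change of -0.26 (SE 0.268, adjusted p = 0.592). Ear2 was at 3.04, 5.61 and 3.57 in the controls and at 3.03, 2.65 and 5.94 with IL-4, with -0.13 (SE 0.430, adjusted p = 0.880). Both groups overlapped for both genes. The sign for Ear2 turned without unstimulated e (0.17) and without IL-4 1 (0.03) or 2 (0.09), with none of these called. The 95% intervals ran from -0.78 to 0.27 for Ear1 and from -0.98 to 0.71 for Ear2, against 1.11 to 1.56 for Ear6. The difference between these genes was not tested.

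Ear10 (ENSMUSG00000090166, chr14:43922720-43923559, − strand, GRCm38), the remaining RNase gene, had a count of 0 in all 18 libraries. A limit of 3 counts allows a level of up to 0.996 to 2.18 normalized CPM in a library of the larger set, and up to 0.495 to 0.830 in the IL-4 set. Ear10 is a near copy of Ear2, and its value is uncertain for the reason given next.

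Ear1, Ear2 and Ear10 share long stretches of sequence, and per the study's methods reads were counted where they mapped to 1 place in the genome. In the GENCODE M21 annotation of GRCm38, the coding sequences of Ear2 and Ear10 were 97.03% identical (14 of 471 bases differed), those of Ear1 and Ear2 95.7% and those of Ear1 and Ear10 95.1%. Of all 50-base words in the transcripts of Ear1, 57.4% also occur in other annotated genes, as do 41.5% of those of Ear2 and 39.9% of those of Ear10. Ear-ps2, Ear-ps9 and the other Ear genes hold these words. For Ear6 the share was 0.954% (9 of 943 words), and for Prg2, Prg3, Epx and the related gene Rnase2a it was 0. Within the last 300 bases of each transcript, nearer to where 3′ tags fall, the share was 58.6% for Ear1, 38.2% for Ear2, 38.0% for Ear10 and 2.97% for Ear6. The words were compared between transcripts, not between places in the genome. A read from a stretch that occurs at several places has no single place. Where Ear1 and Ear-ps9 overlap on the same strand, a read may instead be ambiguous between those genes. The levels of Ear1, Ear2 and Ear10 are therefore uncertain and may be too low, while nearly all of Ear6 can be told from its relatives. The coding sequence of Ear6 was 87.4% identical to that of Ear1, 88.2% to that of Ear2 and 88.0% to that of Ear10.

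The ends of the coding sequences show how close the copies are, at the side from which tags were read. The last 90 coding bases, ending in the stop codon, are given 5′ to 3′ on the coding strand from GRCm38 with the GENCODE M21 annotation, with capitals where a base differs from the aligned base of Ear6. They lie at chr14:51854376-51854465 (+) for Ear6, chr14:43818942-43819031 (−) for Ear1, chr14:44103268-44103357 (+) for Ear2, chr14:43922898-43922987 (−) for Ear10 and chr14:51255439-51255528 (−) for Rnase2a. Ear1, Ear2, Ear10 and Rnase2a differ from Ear6 at 9, 10, 9 and 12 of these bases, and those of Ear1 and Ear10 are the same run.
Ear6: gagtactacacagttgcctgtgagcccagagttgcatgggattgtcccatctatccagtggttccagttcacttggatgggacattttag
Ear1: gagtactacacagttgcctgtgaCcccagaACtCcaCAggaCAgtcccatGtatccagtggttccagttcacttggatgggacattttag
Ear2: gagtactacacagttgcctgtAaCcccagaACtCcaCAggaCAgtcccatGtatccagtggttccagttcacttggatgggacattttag
Ear10: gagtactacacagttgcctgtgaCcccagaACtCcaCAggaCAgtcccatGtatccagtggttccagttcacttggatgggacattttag
Rnase2a: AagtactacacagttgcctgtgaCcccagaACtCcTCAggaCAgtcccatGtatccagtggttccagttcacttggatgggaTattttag

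On chromosome 14 the Ear family forms 2 clusters 7.06 Mb apart. The first, at chr14:43818765-44103534, holds 9 annotated genes of which 6 are pseudogenes, with Ear1, Ear10 and Ear2 as its protein-coding genes. The second, at chr14:51162260-51854643, holds 8 genes of which 4 are pseudogenes, with Rnase2b, Ear14, Rnase2a and, at its end, Ear6 as its protein-coding genes. The annotated span of Ear1 overlaps the pseudogenes Ear-ps12 and Ear-ps9 on the same strand. Ear1, Ear2 and Ear10, with few or no counts in the larger set, thus lie in the first cluster and Ear6 in the second, where Ear14 and Rnase2b had almost no counts either.

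**Figure D3:**
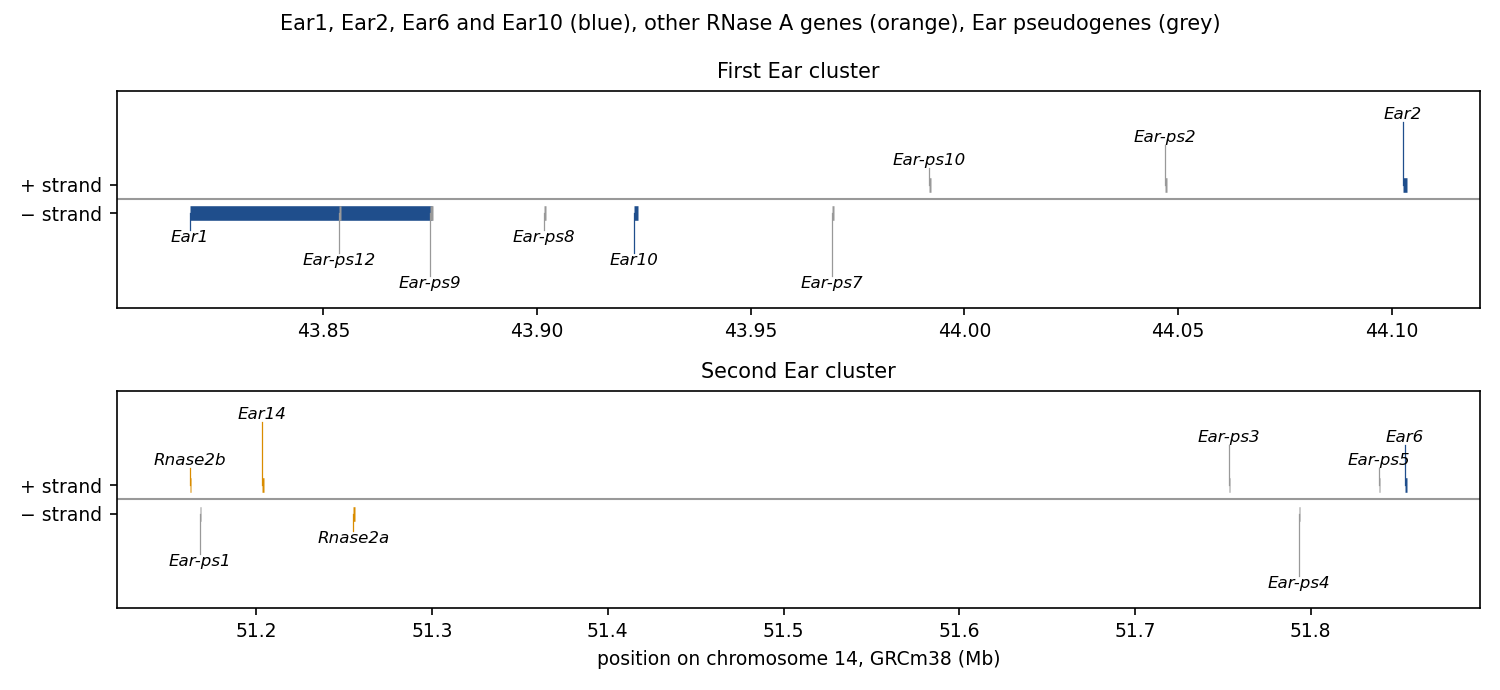
Position (horizontal axis, Mb on chromosome 14 of GRCm38) and strand of the 17 genes of the Ear family in their 2 clusters, with Ear1, Ear2, Ear6 and Ear10 in blue, other RNase A genes in orange and 10 pseudogenes in grey. Ear1, Ear10 and Ear2 lie in the first cluster and Ear6 at the end of the second.

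Promoters of 300 bases around the annotated start were taken from a set of 32851 RefSeq promoters (GRCm38.p6), and the copy of it used here holds 6 of the 7 granule genes, all but Prg2. The promoter of Ear6 is 92.8% identical to that of Ear1 over 279 aligned bases, and 91.5% identical to that of Ear10. Motifs were searched on both strands as letters: GATA (those letters after A or T and before A or G, in 29.8% of these promoters), STAT6 (TTC and GAA with any 4 letters between, 6.95%) and C/EBP (TTGC and AA with any 2 letters between, 10.8%). The Ear6 window held none of the 3. Ear1, Ear2 and Ear10 each had 1 C/EBP match (TTGCACAA), Prg3 had 1 GATA match (TTATCA) and Epx 1 STAT6 match (TTCCAGAGAA), while Rnase2a had another C/EBP match (TTGCATAA). A match is a description of letters, and its absence says only that these letters are not in the window. The promoters of Ear6 and Rnase2a, whose genes both rose with IL-4, and of Ear1, which was not called, are given 5′ to 3′ on the gene's strand, with motif matches in capitals. They lie at chr14:51853518-51853817 (+) for Ear6, chr14:51256063-51256362 (−) for Rnase2a and chr14:43819590-43819889 (−) for Ear1.
Ear6: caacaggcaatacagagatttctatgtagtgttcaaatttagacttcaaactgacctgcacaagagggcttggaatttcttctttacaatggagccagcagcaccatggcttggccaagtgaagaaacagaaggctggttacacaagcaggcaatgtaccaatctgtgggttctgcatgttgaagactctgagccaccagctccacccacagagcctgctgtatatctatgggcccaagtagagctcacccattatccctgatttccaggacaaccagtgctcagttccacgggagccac
Rnase2a: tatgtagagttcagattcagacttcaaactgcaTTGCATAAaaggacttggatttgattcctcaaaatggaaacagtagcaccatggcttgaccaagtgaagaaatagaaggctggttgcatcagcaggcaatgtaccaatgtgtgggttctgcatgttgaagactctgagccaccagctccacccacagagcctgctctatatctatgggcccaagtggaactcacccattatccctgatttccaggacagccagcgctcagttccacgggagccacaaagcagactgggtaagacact
Ear1: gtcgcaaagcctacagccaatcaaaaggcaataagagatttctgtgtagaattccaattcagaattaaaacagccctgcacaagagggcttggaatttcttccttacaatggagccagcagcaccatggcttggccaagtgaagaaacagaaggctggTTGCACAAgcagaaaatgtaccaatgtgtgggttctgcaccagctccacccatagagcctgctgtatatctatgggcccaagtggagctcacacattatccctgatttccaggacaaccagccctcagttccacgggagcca

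Genes whose pattern was most like that of a granule gene were named by Pearson's r of log2 normalized CPM, as a description without a test. The libraries fall into the stimulus groups, so any gene that differs between the same groups tends to have a high r. Over 12 libraries of the larger set, Prg2 was closest to Bms1 (r = 0.962), Klrg1 (0.953) and Aatf (0.950), and Ear6 to Pim2 (0.971), Bcl2l1 (0.966) and U90926 (0.958). Between Prg2 and Ear6 themselves r was 0.312 there. Over the 6 libraries of the IL-4 set, Ear6 was closest to Pmm1 (0.998), Serpina11 (0.997) and Btk (0.997), and Prg2 to Sec22c (0.994), Trafd1 (0.993) and Klf11 (0.993). The scarcer genes were closest to Bicral (0.990), Pdk1 (0.988) and Acaa2 (0.987) for Epx, Usp45 (0.978), Insig2 (0.978) and Mtcp1 (0.974) for Prg3, Kank2 (0.983), Arnt (0.976) and Slc15a3 (0.974) for Ear1, and 1110025M09Rik (0.992), Tifab (0.988) and Sugp1 (0.976) for Ear2. In the same 6 libraries r was 0.975 between Prg2 and Epx, 0.894 between Prg2 and Ear6, and -0.57 between Prg2 and Ear1.

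Of 16 other genes of the RNase A superfamily, 3 could be tested in the larger set and 4 in the IL-4 set. The median log2 fold change of those tested was -1.59 for E. coli, -0.37 for IFN-γ, -1.33 for the combination and 0.45 for IL-4. Rnase2a, which lies in the same cluster as Ear6, was called higher with the combination and with IL-4. Its normalized CPM was 13.3, 5.03 and 9.41 in unstimulated libraries a to c, 9.32, 15.6 and 18.1 with E. coli, 15.0, 13.2 and 11.7 with IFN-γ, and 10.9, 26.7 and 33.5 with both. The combination overlapped the controls in 1 library, and the log2 fold change was 1.29 (SE 0.356, adjusted p = 0.00554, edgeR), while E. coli alone (0.55, adjusted p = 0.278) and IFN-γ alone (0.45, adjusted p = 0.402) were not called. In the IL-4 set Rnase2a had 23.8, 25.3 and 30.1 in controls and 52.6, 50.3 and 66.6 with IL-4, without overlap (1.09, SE 0.171, adjusted p = 0.00313). Ear14 had 1 count in all 18 libraries together, and Rnase2b had 0 or 1 count per library.

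The other called RNases, Rnase4 and Rnase6, fell. Rnase4, a secreted RNase, fell by 2.21 under E. coli, 2.00 under IFN-γ and 3.40 under the combination (adjusted p = 5.80e-06, 2.34e-05 and 2.28e-07, edgeR), from 26.4 to 40.9 normalized CPM in controls a to c to 1.97 to 4.35 with the combination. Rnase6, an antimicrobial RNase, fell by 1.59, 0.37 and 1.33 (adjusted p = 9.65e-09, 0.0157 and 3.13e-08). The call of Rnase6 with IFN-γ was lost without unstimulated a (-0.35, adjusted p = 0.0609), unstimulated b (-0.28, 0.0890) or IFN-γ 2 (-0.31, 0.0946). In the IL-4 set neither was called (0.44 and 0.19, adjusted p = 0.476 and 0.361). Rnh1, the cytosolic inhibitor that binds RNases of this family, fell by 0.35 with E. coli in edgeR (SE 0.130, adjusted p = 0.0456) and was not called by DESeq2 (adjusted p = 0.0705). With 1 library left out that call held only without unstimulated c. Leaving out unstimulated a or b or E. coli 1, 2 or 3 gave -0.33, -0.23, -0.39, -0.26 and -0.40 with adjusted p of 0.127, 0.224, 0.0744, 0.224 and 0.0508. Rnh1 was not called with IFN-γ (-0.23), the combination (-0.25) or IL-4 (-0.12).

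Genes of granule formation and packing were tested for 12 of 12 in both sets. With E. coli 3 rose and 1 fell (all genes: 13.5% and 16.7%), under IFN-γ 1 rose and 4 fell (15.6% and 16%), under the combination 4 rose and 4 fell (23.9% and 25.2%), and IL-4 lowered 1 of them and raised none (5.97% higher and 4.35% lower). The others, 8, 7, 4 and 11 of the 12, were not called. The median log2 fold change of the list was 0.14, -0.19, -0.05 and 0.17, against -0.02, -0.03, -0.04 and 0.00 over all genes tested. Cebpa, a transcription factor of granulocyte development, fell by 1.29 with E. coli (adjusted p = 0.0210), 1.74 with IFN-γ (0.00797), 1.45 with the combination (0.0138) and 1.43 with IL-4 (0.0121, edgeR). It had 2 to 19 counts per library in the larger set. Calls of Cebpa were lost in part when 1 library was left out. With E. coli these were unstimulated a (-1.29, adjusted p = 0.0622), unstimulated b (-1.18, 0.0597), E. coli 1 (-1.28, 0.0640) and E. coli 2 (-0.87, 0.153), with the combination its replicate 2 (-1.33, 0.0624), and with IL-4 its replicates 1 (-1.36, 0.0731) and 2 (-1.26, 0.0691). Ndst2, an enzyme that sulfates the heparin chains of granule proteoglycans, fell by 1.17 with the combination (SE 0.254, adjusted p = 0.000866). Srgn, the core protein of that proteoglycan, stood at 11554 to 14269 normalized CPM in the IL-4 set (log2 fold change -0.01, adjusted p = 0.982). In the other set its 3889 to 4093 counts crowded under the highest count of any gene, a ceiling, so its changes, with its call for the combination, cannot be read there, while the highest count of a granule gene was 283.

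Genes of the exocytosis machinery, which brings granules to the plasma membrane, were tested for 16 of 17 (Vamp7 was not matched). Of the 16, 2 rose and 5 fell with E. coli, 4 and 1 after IFN-γ, 5 and 3 with the combination, and 2 and 1 with IL-4, beside the shares of all genes given above, with list medians of -0.01, 0.07, -0.06 and 0.09. Stx11, a syntaxin of granule fusion in leukocytes, rose by 0.83 under E. coli, 0.87 under IFN-γ and 2.37 under the combination (adjusted p = 1.98e-05, 1.22e-05 and 7.25e-12). Its normalized CPM was 77.4, 78.0 and 66.7 in controls and 363, 375 and 409 with both. Cdk5, a kinase tied to secretion, fell by 1.04, 1.32 and 2.29 (adjusted p = 0.00694, 0.00232 and 2.79e-05), and its call with E. coli was lost without unstimulated a (-0.73, 0.0879). Neither was called with IL-4.

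Eosinophil markers were abundant in all 18 libraries. Of the 8 listed, all were tested, none was at 0 in any library, and their summed normalized CPM was 7425 to 9777 in unstimulated libraries a to c, 7669 to 9376 with E. coli, 9045 to 11204 with IFN-γ, 8910.4 to 10713 with both, 9715 to 11304 in libraries d to f and 8731 to 9147 with IL-4. Csf2rb had the highest mean in the larger set and Alox15 in the IL-4 set. In the larger set counts of Csf2rb (up to 4089), Itgam (up to 3922), Alox15 (up to 3732), Ccr3 (up to 3576) and Csf2rb2 (up to 3398) came near the ceiling described for Srgn, so their changes, their order and the sums there cannot be relied on. Those of Adgre1 (up to 2739) and Siglecf (up to 2556) lay further below it, but the ceiling may distort their changes there too. Of all genes tested, 13.5% were called higher and 16.7% lower with E. coli, and 15.6% and 16% with IFN-γ. These shares were 23.9% and 25.2% with the combination and 5.97% and 4.35% with IL-4. Among the 8 markers, 2 were called higher (Itgam, Csf2rb2) and 2 lower for E. coli. For IFN-γ 3 were higher (Adgre1, Csf2rb, Csf2rb2) and 2 lower, and for the combination 3 were higher (Itgam, Csf2rb, Csf2rb2) and 3 lower. Siglecf and Il5ra were among the lower ones each time, by 0.68, 0.70 and 1.55 on the log2 scale for Siglecf and 2.55-fold, 1.295-fold and 2.42-fold for Il5ra, and Alox15 was the other for the combination. After IL-4, Il5ra (0.60) and Siglecf (0.39) were higher and Ccr3 (-0.72) and Adgre1 (-0.80) lower. These calls and those of Prg2 share their controls, and their part in the result for Prg2 was not tested. Of 6 T cell markers, of cells that the beads against Thy1.2 remove, only Cd3d was tested, and edgeR called it in 0 comparisons with unstimulated cells (0 at an unadjusted p under 0.05, 0 by DESeq2). Cd3e was at 0 in 10 of 12 and 5 of 6 libraries, and the list summed to 1.29 to 8.85.

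B cell markers, of cells that the beads against B220 remove, were tested for 4 of 5 in the larger set. In ascending order their summed normalized CPM was 110.1, 184 and 205 in unstimulated libraries a to c, 39.3, 42.5 and 74.5 with E. coli, 54.7, 56.0 and 95.2 with IFN-γ, and 118, 119 and 127 with both. With E. coli 4 were called lower, with IFN-γ 4, and with the combination edgeR called 0 of 4 (1 at an unadjusted p under 0.05, 0 by DESeq2). In the IL-4 set, with 3 tested, the sum was 22.0, 24.6 and 35.3 in controls and 52.3, 58.1 and 62.2 with IL-4, and 3 were called higher, beside the rise of Prg2 and Ear6. Ighm was the most abundant, and Pax5 was at 0 in 2 libraries of each set. Macrophage markers, 7 of 7 tested, summed to 1609, 1689 and 1776 in controls a to c, 919.5, 991 and 1585 with E. coli, 2049, 2153 and 2189 with IFN-γ, and 1765.5, 1985 and 2344 with both. They summed to 3308, 3655.5 and 4368 in controls d to f and 2616, 2720.3 and 3097 with IL-4. Calls were 2 lower with E. coli, 3 higher with IFN-γ, 2 higher with both and 3 lower with IL-4. The calls of these and the other marker lists stand beside the shares of all genes given for the eosinophil markers. Lyz2 was the most abundant macrophage marker, and none was at 0 in any library. In the larger set Lyz2 reached 2437 counts, so the ceiling may distort its changes and the macrophage sums there. The part of these cells in the results for Prg2 and Ear6 was not tested.

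Mast cell and basophil markers, whose cells also store basic granule proteins, had 2 of 7 tested in each set. Their sum was 7.37, 8.18 and 9.59 normalized CPM in unstimulated libraries a to c, 6.97, 10.1 and 34.3 with E. coli, 13.01, 14.3 and 30.0 with IFN-γ, and 35.6, 66.2 and 70.2 with both, and 6.44, 7.14 and 8.85 in libraries d to f against 7.94, 17.4 and 20.6 with IL-4. Tpsb2 was called higher with IFN-γ, Cma1 and Tpsb2 with the combination, and edgeR called 0 with E. coli (0 at an unadjusted p under 0.05, 0 by DESeq2) and 0 with IL-4 (2 unadjusted, 0 by DESeq2). Tpsb2 had the highest mean, and the basophil marker Mcpt8 was at 0 in all 12 libraries of the larger set and in 5 of the 6 others. Neutrophil markers, 2 of 8 tested in the larger set, summed to 12.5, 12.6 and 19.6 in controls, 45.8, 61.2 and 128 with E. coli, 58.0, 65.1 and 70.9 with IFN-γ and 49.3, 66.4 and 100.4 with both. S100a8, the most abundant, was called higher with each of these, Ly6g with IFN-γ and with both, and Ltf was at 0 in 11 of 12 libraries. In the IL-4 set the neutrophil sum was 14.6 to 24.8 in all libraries, and of 3 tested edgeR called 0 (1 unadjusted, 0 by DESeq2). Cell cycle markers, 2 of 5 tested, summed to 11.3 to 14.4 in controls a to c, 7.70 to 14.3 with E. coli, 1.95 to 7.79 with IFN-γ and 5.90 to 9.43 with both, with Top2a called lower with IFN-γ by edgeR and not by DESeq2, 0 called by edgeR with E. coli (2 unadjusted, 0 by DESeq2) or with both (0 unadjusted, 0 by DESeq2), Mki67 the most abundant, and Birc5 at 0 in 7 of 12 libraries. They summed to 22.1 to 43.4 in the IL-4 set, where 0 of 3 were called by edgeR (0 unadjusted, 0 by DESeq2). Between the combination and E. coli alone, where Prg2 and Ear6 were lower, 4 of 4 B cell, 5 of 7 macrophage, 2 of 2 mast cell and basophil and 1 of 2 neutrophil markers were called higher, with list medians of 1.33, 1.10, 2.06 and 0.84, and 1 of 2 cell cycle markers was called lower by edgeR and 0 by DESeq2. Of all genes tested, 17.5% were called higher there and 15.3% lower. Of the eosinophil markers, Csf2rb and Csf2rb2 were called higher there and Siglecf lower (-0.87). Between the combination and IFN-γ alone, where Ear6 was higher, 3 of 4 B cell markers (median 0.97; 0 by DESeq2) and Cma1 of the mast cell and basophil markers were called higher, and of the eosinophil markers Csf2rb2 was called higher and Il5ra, Alox15 and Siglecf lower. Of all genes tested, 6.25% were called higher and 5.98% lower between the combination and IFN-γ. For the interaction, 2.58% of all genes were called higher and 2.04% lower. There 4 of 4 B cell markers (2.32 to 2.92) and Timd4 of the macrophage markers (1.62) were called higher and S100a8 lower (-2.55). The part of these cells in the results for the granule genes was not tested.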

How the data were processed

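Counts per Ensembl gene were deposited by the authors for each of 18 libraries, as whole numbers without normalization. Per the study's methods, CEL-Seq2 libraries were aligned to GRCm38 with TopHat2 2.1.0 and uniquely mapped reads were counted with HTSeq 0.6.1. The same methods and the submitters' processing notes also name fastp 0.20.1 and STAR 2.7.2a, without saying for which libraries, and whether molecular tags were collapsed is not given in the sources used here. The highest count of any gene was 4095 in the larger set and 191131 in the IL-4 set. A count may therefore not stand for the same amount of RNA in both, and totals of the sets may not compare as depth. Lines that name no gene (no feature, ambiguous) were left out of library sizes and held 21.1% to 39.4% of a library's total in the larger set.

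The 2 sets were fitted apart in edgeR 4.0.16 (R 4.3.3), with filterByExpr (minimum count 10, minimum total count 15), TMM factors and the quasi-likelihood test on all 12 or all 6 libraries, without covariates, and p-values were adjusted by Benjamini-Hochberg over all genes tested. The fit was tested on simulated data. Alternatives were DESeq2 1.42.0, its size factors, no filter, a change by a factor of 2, only the groups compared, a correction for a ceiling on counts, library sizes without the highest genes, a replicate block, and each library left out. Likeness used log2 normalized CPM with a prior count of 2.

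The 7 granule genes were named in every library. Beside them stood other RNase A genes, the RNase inhibitor, genes of granule formation, genes of exocytosis, and markers of eosinophils, B cells, T cells, macrophages, mast cells and basophils, neutrophils and the cell cycle. Rnh1, Srgn, Ear14, Rnase2a, Rnase2b and, from the RNase, formation and exocytosis lists, genes called with a log2 change of at least 1 in size against unstimulated cells were named, with the 3 genes of highest r per tested granule gene. The granule genes and the lists were chosen with earlier results of these data known. Other genes were named after their values were seen, where a marker was called, the most abundant or at 0.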

Additional observations from a re-analysis of the deposited data

Results flagged for a closer look

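The level of Prg2 in unstimulated library e (47.7 normalized CPM) stood apart from the other 5 unstimulated libraries. Its gap to the next library was 0.738 of the range of the 6, above Dixon's 95% critical value of 0.625. The 6 libraries come from both sets, which were normalized apart. Of 16 genes examined this way, 1 passed. Chance alone gives about 1 in 20 groups where all libraries are drawn alike. That need not hold here, since a level that differs between the sets widens the range, so neither figure is a yardstick for library e. Prg2 with IL-4 was called without this library, at 1.13 with an adjusted p of 0.000119.

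The effect of E. coli differed in the presence of IFN-γ for Rnase6, with an interaction of 0.63 on the log2 scale (SE 0.165, adjusted p = 0.0317, edgeR), and for Stx11, with 0.67 (SE 0.157, adjusted p = 0.0178). Rnase6 fell by 1.59 with E. coli against unstimulated cells and by 0.95 with the combination against IFN-γ. Stx11 rose by 0.83 and 1.498 in the same comparisons. Markers of other cells were called in the same test with larger values: the B cell markers Cd79a (2.32), Ms4a1 (2.68), Cd79b (2.92) and Ighm (2.46), the macrophage marker Timd4 (1.62) and the neutrophil marker S100a8 (-2.55).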

How the results depend on the processing

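Over 229 alternative values of the granule genes, 210 kept their direction and their side of the threshold, 14 kept the direction and lost the call, and 5 turned. The 210 include many values that were not called in the main fit and stayed so. Prg2 with IL-4 kept its call in 4 of 10 alternatives. With a demand that levels change at least 2-fold, 0 of the 2 called genes were left with IFN-γ, 1 with the combination, 1 with IL-4 and 0 between the combination and E. coli, because that limit is above the sizes of those changes. Leaving out 1 library gave 1 to 2 called genes with the combination and 1 to 2 with IL-4, and the cause was not tested.

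Some values that were not called turned, in the interaction for Prg2 (0.0710 without IFN-γ 2, with leave-one-out values of log2 fold change from -0.25 to 0.0710) and Ear6 (-0.0338 without unstimulated b, from -0.0338 to 0.30), and for Ear2 with IL-4 (0.17, 0.03 and 0.09, each without 1 library, from -0.55 to 0.17). Among other genes they turned for Srgn with E. coli (0.52 and called with counts corrected for the ceiling, 0.10 without unstimulated b, from -0.30 to 0.10), for Srgn with IL-4 (0.0816 without unstimulated e, 0.0409 without IL-4 1, from -0.0749 to 0.0816), and for Rnase4 with IL-4 (-0.0416 without IL-4 2, from -0.0416 to 0.67). The cause was not tested, except that the ceiling correction raises counts near the ceiling. It raised the highest count of a granule gene from 283 to 293.

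With a replicate block, 1 granule gene was called between the combination and IFN-γ and 2 between the combination and E. coli, as without it. Whether the numbers pair the samples is unclear. Of 9 same-numbered pairs, 5 correlated above 0.1 (range -0.0348 to 0.361), while pairs of different numbers ranged from -0.409 to 0.285. A library correlated best with its own number in 9 of 18 cases. The ceiling correction and the changed library sizes were not run for the IL-4 set, where counts did not crowd under a ceiling. Depth limits Prg3, Epx, Ear1 and Ear2, which had at most 12 counts in a library of the larger set, so changes in them there could have gone undetected.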
